A study of Mus musculus with 4 samples.

Results

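The genes examined were 8 genes of cholesterol synthesis and of its control by SREBP: the enzyme genes Hmgcs1, Idi1, Fdft1, Sqle and Lss, the transcription factor genes Srebf1 and Srebf2, and Insig1. They were found by exact match of the gene symbol among the 24850 named entries of the total RNA tables and the 24992 named entries of the polyA RNA tables, and 7 of the 8 had a value above 0 in every library. The cells were C2C12, a mouse myoblast line that forms myotubes once serum is lowered, and the labels name no genetic change in any of the 4 libraries. Total RNA depleted of rRNA came from myoblasts (MB) in growth medium with 10% fetal bovine serum, 24 h before the change of medium (DM -24 h), and from myotubes (MT) kept for 72 h in differentiation medium (DM) with 2% horse serum. PolyA RNA came from MT at 48 h of DM, transfected with an siRNA against hnRNPL (si-hnRNPL) or with a control siRNA (si-NC). There was 1 library per condition, so the differences below were not checked against replicates and carry no p-value, and a bulk library cannot tell fewer cells of a type from less RNA per cell.

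Cholesterol is built from acetyl-CoA through mevalonate, isoprenoid units and squalene. The enzyme genes are switched on by SREBP-2, the product of Srebf2, and fatty acid synthesis genes mainly by SREBP-1, the product of Srebf1. When sterols are plentiful, INSIG proteins hold the SREBP escort SCAP in the endoplasmic reticulum, so that SREBP is not cut and does not reach the nucleus. INSIG1 is itself an SREBP target, and its transcript is widely read as a sign of SREBP activity, while muscle cells also need the pathway for membranes, prenylated proteins and ubiquinone.

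The promoter windows of the 3 members on which the description turns are printed first, with Hmgcs1 shown for its sterol response element (SRE) and Srebf2 and Insig1 because they had the largest differences between MT and MB. Each window runs from 250 bases before the RefSeq start to 50 after it, in GRCm38.p6, and all 3 lie on the plus strand. Capitals mark the SRE (TCACNCCA, or TCACNCCAC in its longer form, which contains the shorter one), the E-box CACGTG and the NF-Y motif CCAAT, searched on both strands, so that ATTGG is CCAAT on the other strand.
Hmgcs1, chr13:119690101-119690400: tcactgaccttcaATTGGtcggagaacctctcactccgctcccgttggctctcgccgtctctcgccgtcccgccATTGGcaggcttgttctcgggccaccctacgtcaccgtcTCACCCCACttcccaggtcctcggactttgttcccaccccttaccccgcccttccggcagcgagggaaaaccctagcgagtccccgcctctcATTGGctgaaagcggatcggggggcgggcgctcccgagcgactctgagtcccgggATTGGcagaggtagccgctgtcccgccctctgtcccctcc
Srebf2, chr15:82147019-82147318: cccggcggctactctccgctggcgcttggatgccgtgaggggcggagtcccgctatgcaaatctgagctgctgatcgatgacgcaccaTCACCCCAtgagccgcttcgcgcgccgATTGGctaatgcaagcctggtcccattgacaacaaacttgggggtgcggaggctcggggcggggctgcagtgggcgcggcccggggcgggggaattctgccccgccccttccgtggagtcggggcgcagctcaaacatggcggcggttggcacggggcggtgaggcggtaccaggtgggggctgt
Insig1, chr5:28071162-28071461: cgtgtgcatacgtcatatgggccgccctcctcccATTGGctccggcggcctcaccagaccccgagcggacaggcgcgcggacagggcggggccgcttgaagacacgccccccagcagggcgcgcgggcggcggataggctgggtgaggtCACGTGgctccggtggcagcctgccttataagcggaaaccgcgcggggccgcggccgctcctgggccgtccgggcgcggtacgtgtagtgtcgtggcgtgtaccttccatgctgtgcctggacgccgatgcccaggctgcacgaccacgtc
The longer SRE stood 137 bases before the start of Hmgcs1, between copies of the inverted CCAAT, of which the window held 4. The shorter SRE stood 162 bases before the start of Srebf2, and the E-box 101 bases before that of Insig1. Among all 32851 promoter windows of the RefSeq table, 4.36% held the shorter SRE, 1.24% the longer one, 7.15% the E-box, 37.4% CCAAT and 35.7% the Sp1 motif GGGCGG. RefSeq windows were matched for 6 of the 8 members, 8 windows in all because Srebf1 has 3 starts, and CCAAT and GGGCGG (not capitalised above) were each found in 7 of the 8. The shorter SRE was found in 2 of the 6 matched genes (Hmgcs1 and Srebf2), the longer one in 1 and the E-box in 1 (Insig1), while Idi1, Lss and the 3 windows of Srebf1 held none of these. Sqle and Fdft1 were not matched. Only these exact letters were searched, so a site that departs from them was not counted. These matches describe the letters of the windows, and binding was not tested. Because the deposited values are per gene, the 3 starts of Srebf1, which give SREBP-1a and SREBP-1c, were not told apart.

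Expression was given as FPKM, fragments per kilobase of transcript scaled to library size, which allows levels to be compared between genes, with a 95% interval from Cufflinks that holds only the error of counting and assigning fragments inside 1 library. The interval widths imply from 14592485 fragments over all entries in the library labelled si-hnRNPL to 59960176 in MB. For the 7 members with values, the implied number of fragments was 5541 to 12917 in MB and 5896 to 12507 in MT. It was 850 to 11759 in si-NC and 689 to 7571 in the library labelled si-hnRNPL. These numbers restate the interval widths, which also hold the error of assigning fragments, and do not measure depth. Relative to the level, the polyA intervals were wider for each of these members except Srebf2. The half-width of Srebf2 was 1.84% in si-NC, 2.32% in MB and 1.95% in MT. Hnrnpl, the target of the siRNA (chr7:29595909-29607285 in mm9), stood at 95.1 FPKM in si-NC and 85.9 FPKM in the library labelled si-hnRNPL, which is 90.4% of si-NC, so the mRNA was only slightly lower and the condition is named by its label throughout. In total RNA, 6 of 7 muscle markers were higher in MT by 0.58 or more on the log2 scale. Their summed FPKM went from 162 in MB to 1192 in MT, while 3 of 3 markers of cycling cells were lower, with sums of 329 and 58.6. Among all entries, 14.6% were higher and 28.9% lower by as much. In polyA RNA, 6 of 7 muscle markers were higher in the library labelled si-hnRNPL with intervals apart (sums of 1885 in si-NC and 2619), and Myf5 was lower. All 3 cycling markers were lower with intervals apart (128 and 89.5). Of all entries, 14.2% were higher and 19.6% lower with intervals apart. By 0.58 or more, 2 of 7 muscle markers were higher and 2 of 3 cycling markers lower, beside 1.36% and 0.864% of all entries. The part of these marker shifts in the results below was not tested. Of the other marker lists, the adipocyte markers summed to 3.60 to 15.0 FPKM, nearly all of it Pparg, with Plin1 and Cidec at 0 in every library. The hepatocyte markers summed to at most 0.0146 FPKM with Alb at 0 throughout, and the blood and macrophage markers to 0.405 to 1.13 FPKM with Adgre1 and Hbb-b1 at 0 throughout.

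Hmgcs1, which encodes the cytosolic HMG-CoA synthase that feeds the mevalonate pathway, was listed at 0 FPKM in all 4 libraries. Its only 2 entries lay on the unplaced part of chromosome 13 in mm9, at positions 114527 to 132436 and 308437 to 326346 of the contig chr13_random. All entries on unplaced contigs were at 0 in every library, 147 in each total RNA table and 150 in each polyA table, covering 92 symbols. Of the named entries on placed chromosomes, 69.8% were above 0 in MB, 72.6% in MT, 64.6% in si-NC and 63.6% in the library labelled si-hnRNPL. The zeros of Hmgcs1 are therefore given as listed values, shared with all unplaced contigs, and were not read as its level, and no fold change is given.

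Between MB and MT, each measured member differed by less than 0.58 on the log2 scale, a ratio of 1.49. Insig1 and Srebf2 were the highest in MT relative to MB, Fdft1 and Idi1 were slightly higher, Lss and Srebf1 had overlapping intervals and Sqle was slightly lower. A change is the log2 ratio of FPKM + 1 between MT and MB, on which scale low genes differ less than in FPKM itself, and the interval of a change combines the FPKM intervals of both libraries. Of the 11469 named entries with a mean FPKM of at least 1, 14.6% were higher in MT by 0.58 or more and 28.9% were lower, and their median change was -0.21. The members numbered 0 of 7 in either direction, with a median change of 0.12. After centring on the median of all entries, 2 of 7 members were 0.58 or more higher (Insig1 at 0.72 and Srebf2 at 0.62) and 0 of 7 lower, against 21.1% and 19.4% of all entries. Without centring, the intervals of MB and MT did not overlap for 4 members that were higher (Insig1, Srebf2, Fdft1 and Idi1) and 1 that was lower (Sqle), against 31.2% and 54.8% of all entries.

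**Figure D1:**
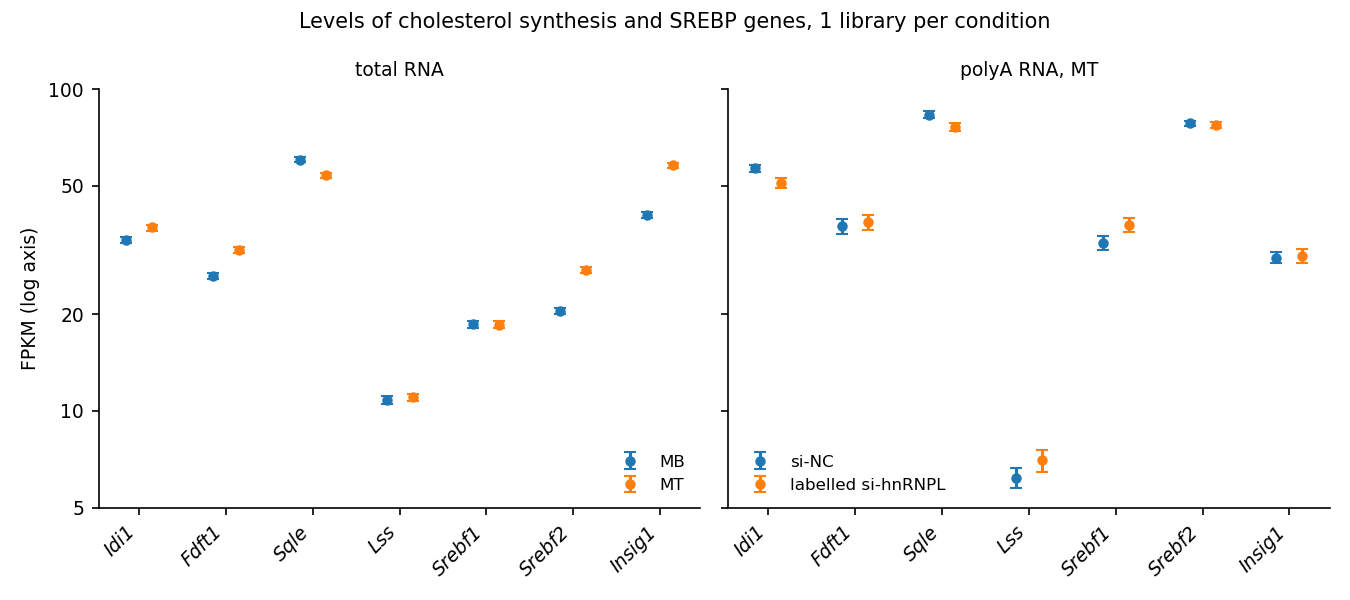
FPKM of the 7 members with values on a log axis, with total RNA of MB and MT on the left and polyA RNA of si-NC and of the library labelled si-hnRNPL on the right. Points are single libraries, bars are 95% Cufflinks intervals, and the total and polyA tables were normalized separately. Insig1 and Srebf2 showed the widest gaps between MB and MT, and in polyA RNA the points of each pair lay close together.

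Idi1 (chr13:8884852-8891642 in mm9) encodes the isomerase that interconverts the activated isoprene units. Its level was 34.0 FPKM (33.2 to 34.8) in MB and 37.1 (36.3 to 37.9) in MT, a log2 change of 0.12 (0.08 to 0.17). In polyA RNA it was 56.7 FPKM (55.1 to 58.3) in si-NC and 51.2 (49.3 to 53.0) in the library labelled si-hnRNPL, a change of -0.15 (-0.21 to -0.08). Idi1 was thus a little higher in MT than in MB, and a little lower in the library labelled si-hnRNPL, with intervals apart both times. Its paralog Idi2 stood at no more than 0.0497 FPKM.

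Fdft1 (chr14:63763988-63798415) encodes squalene synthase, the first enzyme that commits isoprenoids to sterols. It stood at 26.2 FPKM (25.6 to 26.8) in MB and 31.7 (31.0 to 32.3) in MT, a log2 change of 0.26 (0.22 to 0.30). The polyA values were 37.4 FPKM (35.5 to 39.3) in si-NC and 38.6 (36.4 to 40.7) in the library labelled si-hnRNPL, a change of 0.04 (-0.06 to 0.15). The MB and MT intervals were apart and the polyA intervals overlapped. The end of Fdft1 overlaps Ctsb on the opposite strand by 773 bases. Ctsb, a lysosomal protease gene, went from 68.1 FPKM in MB to 125 FPKM in MT and from 162 FPKM to 188 FPKM between the polyA libraries, and the part of shared reads in the Fdft1 values was not tested.

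Sqle (chr15:59146647-59162748) encodes squalene epoxidase, a rate-limiting step of the sterol branch. Sqle was the member with the highest level in MB, at 60.2 FPKM (59.2 to 61.3), and stood at 53.9 (52.9 to 54.9) in MT, a log2 change of -0.16 (-0.19 to -0.12). In si-NC it was at 83.2 FPKM (81.3 to 85.2) and in the library labelled si-hnRNPL at 76.2 (73.9 to 78.5), a change of -0.13 (-0.18 to -0.07). Sqle was the only member below MB in MT with intervals apart, but after centring on the median of all entries its change was 0.06, so the direction depended on that choice. It was also lower in the library labelled si-hnRNPL with intervals apart.

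Lss (chr10:75994350-76019884) encodes lanosterol synthase, which closes the sterol rings. Lss was the member with the lowest level in each library, at 10.8 FPKM (10.5 to 11.1) in MB and 11.0 (10.7 to 11.3) in MT, a log2 change of 0.02 (-0.03 to 0.07). It stood at 6.21 FPKM (5.78 to 6.63) in si-NC and 7.02 (6.48 to 7.55) in the library labelled si-hnRNPL, a change of 0.15 (0.02 to 0.28). The intervals of the paired libraries overlapped in both comparisons. The antisense entry 4930483K19Rik, which shares 11269 bases of locus with Lss, was at 0.0863 to 0.224 FPKM. Sqle exceeded Lss by a ratio of 5.56 in MB, 4.89 in MT, 13.4 in si-NC and 10.9 in the library labelled si-hnRNPL, so the neighbouring steps of the pathway had unequal transcript levels in every library.

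Srebf2 (chr15:81977699-82035390) stood at 20.4 FPKM (19.9 to 20.9) in MB and 27.4 (26.9 to 28.0) in MT, a log2 change of 0.41 (0.37 to 0.45). In polyA RNA it was at 78.4 FPKM (76.9 to 79.8) in si-NC and 77.3 (75.6 to 79.1) in the library labelled si-hnRNPL, a change of -0.02 (-0.06 to 0.02). The change in MT over MB was above that of 80.3% of entries, and the polyA intervals overlapped. Srebf1 (chr11:60012591-60034106) was at 18.6 FPKM (18.1 to 19.1) in MB and 18.5 (18.1 to 18.97) in MT, a log2 change of -0.01 (-0.05 to 0.04). Its polyA values were 33.3 FPKM (31.7 to 34.9) in si-NC and 37.8 (35.9 to 39.7) in the library labelled si-hnRNPL, a change of 0.18 (0.08 to 0.27), the highest of the members. Srebf1 was thus level between MB and MT without centring (0.21 after it), and higher in the library labelled si-hnRNPL with intervals apart. The ratio of Srebf2 to Srebf1 was 1.10 (1.06 to 1.14) in MB and 1.48 (1.44 to 1.53) in MT. It was 2.35 (2.24 to 2.48) in si-NC and 2.05 (1.94 to 2.16) in the library labelled si-hnRNPL, so the balance lay towards Srebf2 in each library. The polyA tables place Srebf1 at slightly different ends than the total RNA tables, and its locus overlaps the opposite-strand gene Rai1 by 107 bases in the total RNA tables and by 112 in the polyA tables.

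An intron of Srebf2 holds the gene of miR-33, a microRNA known to act on the cholesterol exporter ABCA1. Its mature forms from RefSeq are shown with the seed (bases 2 to 8) in capitals because they are made from the same transcript as this member.
mmu-miR-33-5p: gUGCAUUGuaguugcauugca
mmu-miR-33-3p: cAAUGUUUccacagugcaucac
The 2 seeds differ. Mir33 was listed at 0 FPKM in all 4 libraries, which were not made for small RNA, so the mature miRNA was not measured.

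Insig1 (chr5:28397952-28405202) stood at 40.5 FPKM (39.7 to 41.4) in MB and 57.9 (56.9 to 58.9) in MT, a log2 change of 0.50 (0.46 to 0.54) that was above the change of 83.2% of entries. It was the second highest member in MB and the highest in MT. In polyA RNA it stood at 29.9 FPKM (28.8 to 31.1) in si-NC and 30.3 (28.8 to 31.8) in the library labelled si-hnRNPL, a change of 0.02 (-0.07 to 0.11), with overlapping intervals. Insig2, the family member that is not driven by SREBP in the same way, was at 13.2 FPKM in MB and 20.9 FPKM in MT, a change of 0.62 (0.55 to 0.69). Both INSIG genes were therefore higher in MT, and the ratio of Insig1 to Insig2 was 3.06 (2.92 to 3.20) in MB and 2.78 (2.68 to 2.88) in MT. In the polyA libraries the ratio was 0.597 (0.564 to 0.633) in si-NC and 0.622 (0.581 to 0.666) in the library labelled si-hnRNPL, so the order of the INSIG genes was reversed there. RNA fraction, time in DM and transfection all differ between the total and polyA libraries and cannot be told apart.

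In order of level, MB ran Sqle, Insig1, Idi1, Fdft1, Srebf2, Srebf1 and Lss, and MT differed only in that Insig1 came before Sqle. All neighbours in these orders had intervals that did not overlap. In si-NC the order was Sqle, Srebf2, Idi1, Fdft1, Srebf1, Insig1 and Lss, again with no overlap between neighbours. In the library labelled si-hnRNPL the order was Srebf2, Sqle, Idi1, Fdft1, Srebf1, Insig1 and Lss, where Srebf2 overlapped Sqle and Fdft1 overlapped Srebf1. Srebf2 stood behind the enzymes Sqle, Idi1 and Fdft1 and Insig1 in both total RNA libraries and within the leading pair of both polyA libraries.

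The members were next set beside the rest of the pathway, a list of 20 enzyme genes that contains the 5 member enzymes. Of these, 19 had a mean FPKM of at least 1, the exception being Hmgcs1. Between MB and MT, 1 was higher by 0.58 or more, 1 was lower and 17 lay between, with a median change of -0.12. Tm7sf2, a sterol reductase gene, was the higher one, at 3.43 FPKM in MB and 9.19 in MT, a change of 1.20 (1.06 to 1.34). Acat2, whose product condenses acetyl-CoA at the entry of the pathway, was the lower one, at 57.7 FPKM in MB and 33.9 in MT, a change of -0.75 (-0.80 to -0.70). After centring, Acat2 was at -0.54 and only Tm7sf2 passed. Neither count stood above the share among all entries.

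**Figure D2:**
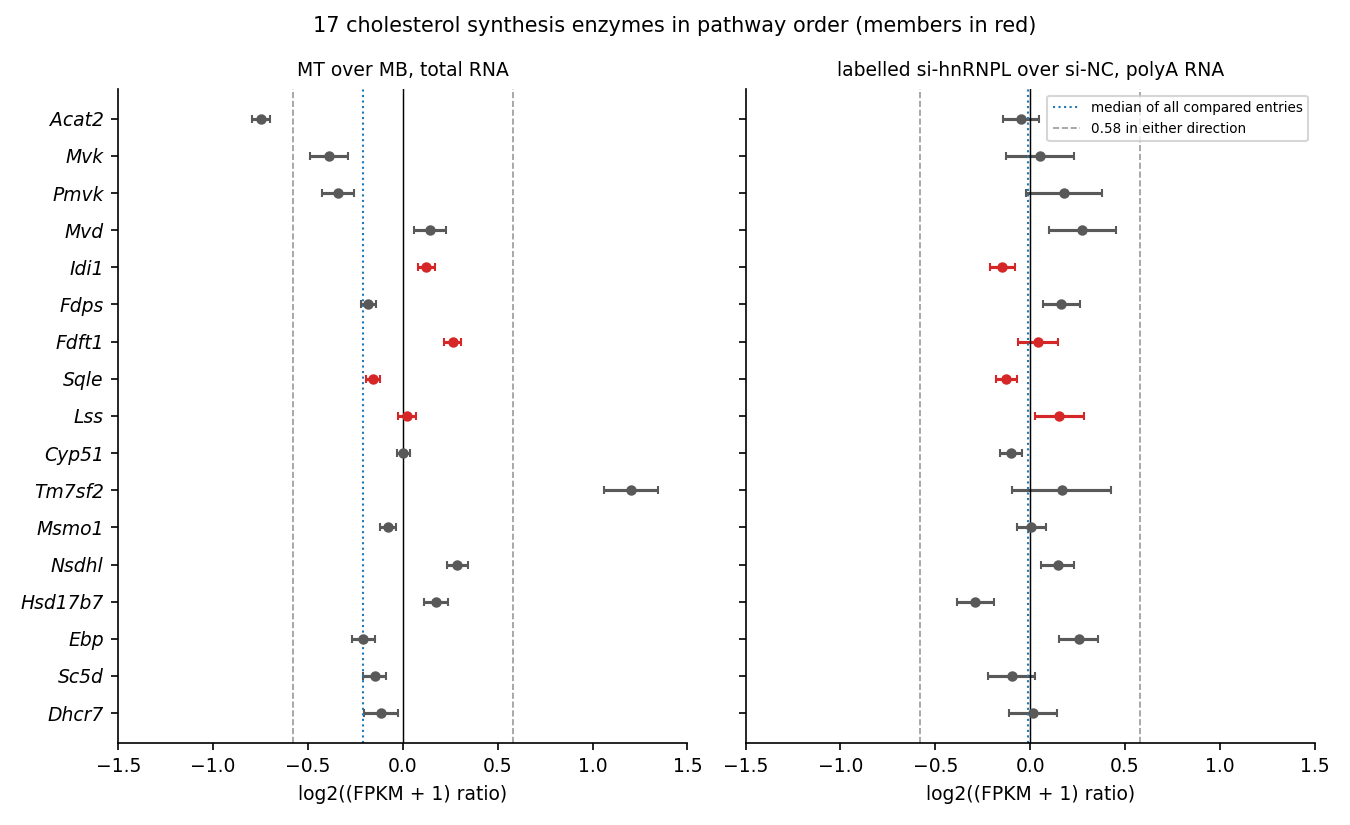
Log2 changes of 17 of the 19 cholesterol synthesis enzymes with values, in pathway order from Acat2 at the top, with member genes in red. Bars are intervals from both libraries, dashed lines mark 0.58 in either direction and the dotted line marks the median of all compared entries. Tm7sf2 and Acat2 were the only genes of the list outside the dashed lines, both in MT over MB.

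Of the kinases and the decarboxylase that turn mevalonate into isoprene units, Mvk was at -0.39 and Pmvk at -0.34 in MT over MB, whereas Mvd was at 0.14. Fdps, which makes farnesyl pyrophosphate, had the highest level of the list in each library, at 144 FPKM in MB and 127 in MT. In the late sterol steps, Nsdhl was at 0.29, Hsd17b7 at 0.17 and Cyp51 at 0.00, and below 0 were Msmo1 at -0.08, Dhcr7 at -0.12, Sc5d at -0.15 and Ebp at -0.21. Early and late steps thus both held values on either side of 0, and the summed FPKM of the 19 genes was 678 in MB and 609 in MT.

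The 13 genes of SREBP control include Srebf1, Srebf2 and Insig1 as well as the escort SCAP, the processing proteases and ubiquitin ligases that act on INSIG. In MT over MB, 1 was higher (Insig2) and 2 were lower, with a median of 0.28. The lower ones were Erlin1, an endoplasmic reticulum membrane gene, with 18.1 FPKM in MB and 7.55 in MT (-1.16), and Scap, with 20.04 FPKM and 11.6 (-0.74). The processing proteases differed little, with Mbtps1 at -0.01 and Mbtps2 at 0.28. Below the fold but with intervals apart were Rnf139 at 0.42, Ubxn4 at 0.43, Ube2g2 at 0.40 and Erlin2 at 0.11. After centring, 6 of the 13 were higher by 0.58 or more and 1 was lower (Erlin1), beside 21.1% and 19.4% of all entries (14.6% and 28.9% without centring), so the count depended on the reference level. Scap and Insig1 thus lay on opposite sides of 0, with changes of -0.74 and 0.50.

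Among 9 genes of sterol uptake and transport, 1 was higher in MT, 2 were lower and the median was -0.04, beside the same 14.6% and 28.9% of all entries. Vldlr, a lipoprotein receptor gene, was at 0.613 FPKM in MB and 2.32 in MT (1.04), and passed the filter on mean FPKM only through its MT value. Among the lower ones was Scarb1, the HDL receptor gene, at 17.1 and 5.68 FPKM (-1.44). The list thus held changes on either side of 0.

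Of 15 fatty acid synthesis genes, 13 had a mean FPKM of at least 1. Counted in MT over MB, 3 of the 13 were higher and 4 lower, beside 14.6% and 28.9% of all entries, so the lower count was near the share of all entries. The median was -0.48. Higher were Scd1, a desaturase gene, at 49.5 FPKM in MB and 125 in MT (1.32), Acss2 at 3.32 and 6.82 FPKM (0.86) and Gpam at 13.04 and 21.7 FPKM (0.70). Lower were Fasn, the fatty acid synthase gene, at 45.9 and 21.1 FPKM (-1.09), Me1 (-0.74), Mid1ip1 (-0.60) and Acly (-0.59). Scd2 was at 132 and 177 FPKM (0.42). After centring, 4 were higher and 1 was lower, beside 21.1% and 19.4% of all entries. Srebf1, known for its action on this branch, was at -0.01 between the same libraries and at 0.21 after centring. Its part in these changes was not tested.

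For efflux and the sterol sensor LXR, 5 of 9 genes had a mean FPKM of at least 1, of which 2 were higher in MT, 0 were lower and the median was 0.36, again beside 14.6% and 28.9%. Apoe, an apolipoprotein gene, was at 0.346 FPKM in MB and 29.1 in MT (4.48), and Mylip, an LXR-driven ubiquitin ligase gene, at 4.95 and 15.3 FPKM (1.45). Apoe, below 1 FPKM in MB, passed the filter only through its MT value, so it could only be counted as higher. The LXR-driven exporter genes Abca1 (0.0406 and 0.673 FPKM) and Abcg1 (0.390 and 1.18 FPKM) were below the filter. In the branches that take isoprenoids away from sterols, 0 of 9 genes were higher and 2 were lower, with a median of -0.33, beside the same shares. These were Pdss1, of ubiquinone synthesis, at 12.0 and 2.47 FPKM (-1.91) and the farnesyltransferase gene Fntb at 11.3 and 5.88 FPKM (-0.84).

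**Figure D3:**
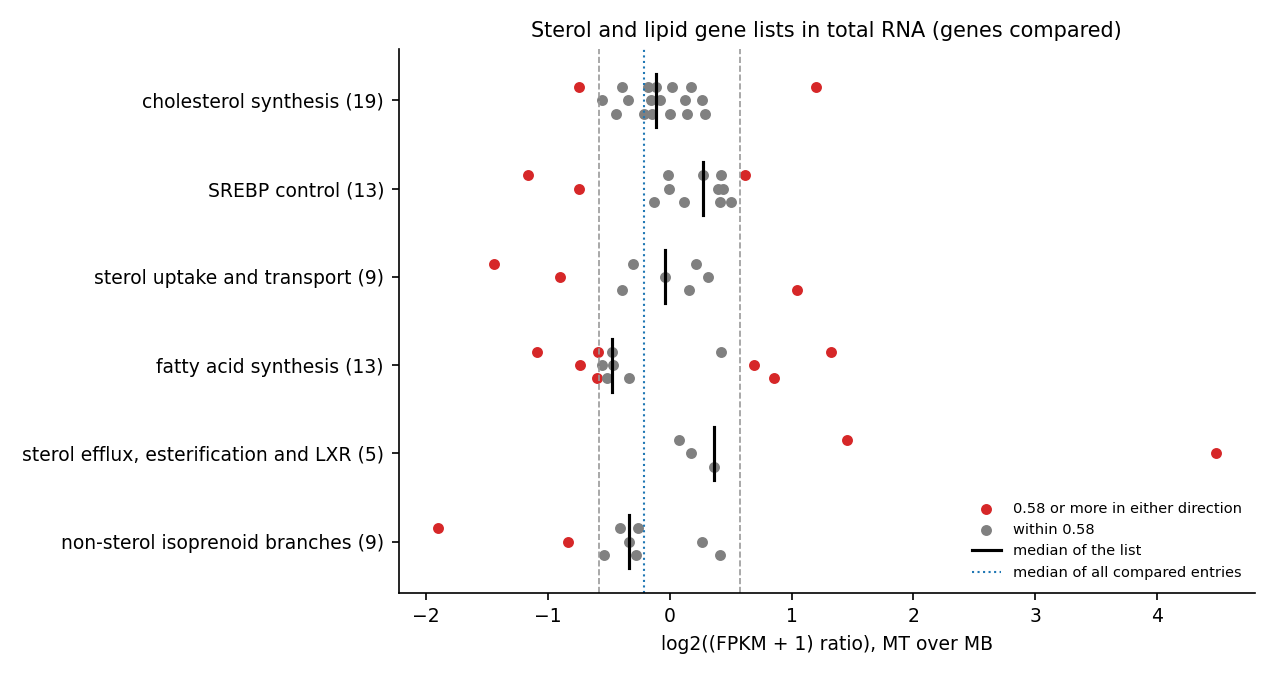
Log2 changes in MT over MB of the genes of 6 lists that had a mean FPKM of at least 1, with 1 point per gene, black bars for list medians and the number of genes after each name. The cholesterol synthesis genes clustered around the median of all entries (dotted line), with points beyond 0.58 (dashed lines) in red, and Apoe stood farthest to the right at 4.48.

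In polyA RNA, none of the members differed by 0.58 or more between si-NC and the library labelled si-hnRNPL (0 of 7). Their changes ran from -0.15 for Idi1 to 0.18 for Srebf1, with a median of 0.02. Of 11233 entries with a mean FPKM of at least 1, 1.36% were higher by 0.58 or more and 0.864% were lower, with a median of -0.01 and an SD of 0.31 across entries. The intervals were apart for 1 higher member (Srebf1) and for 2 lower members (Idi1 and Sqle), against 14.2% and 19.6% of all entries. Since Hnrnpl itself stood at 90.4% of si-NC, these directions belong to libraries whose labelled difference was small at the mRNA level. The protein was not measured in these libraries, and the paper examined its knockdown by Western blot.

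**Figure D4:**
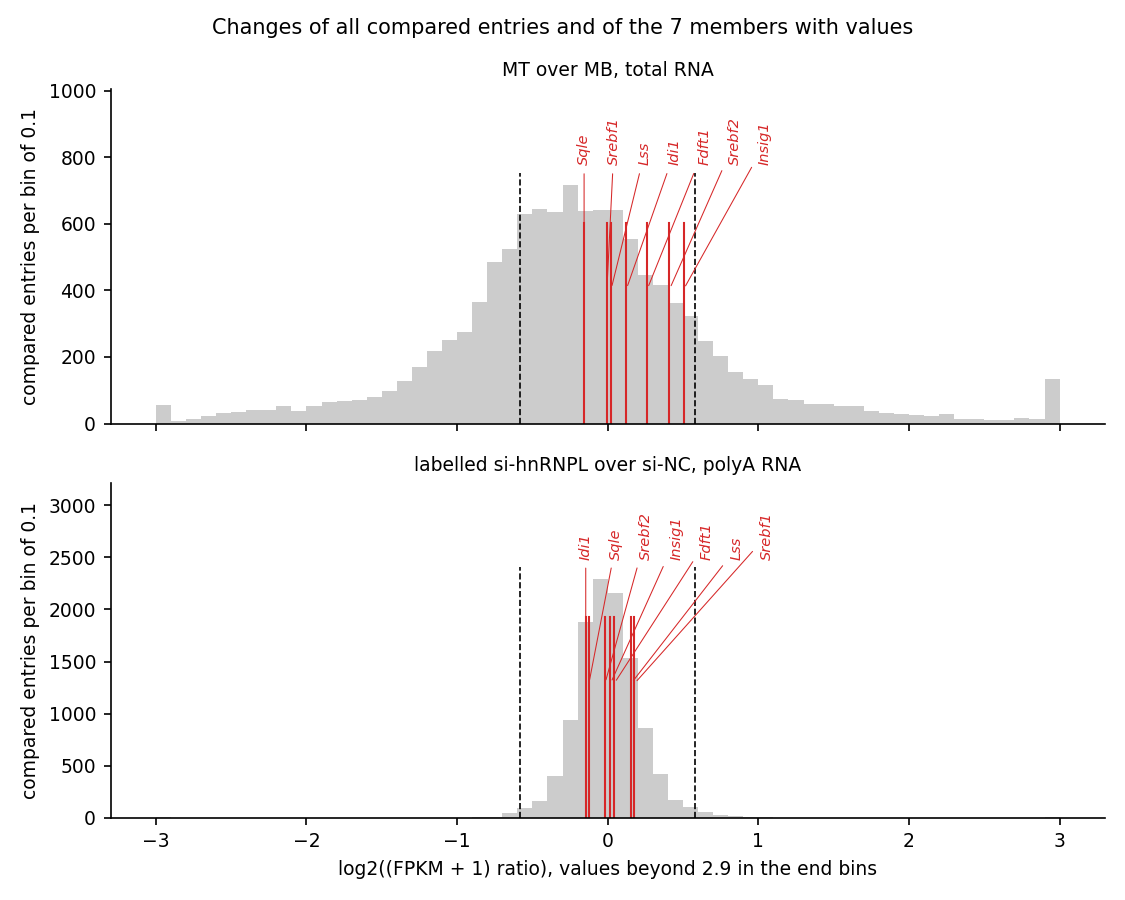
Histograms of the log2 changes of all compared entries in bins of 0.1, with red lines for the 7 members and dashed lines at 0.58 in either direction, for MT over MB above and for the library labelled si-hnRNPL over si-NC below. All members lay between the dashed lines, with Insig1 and Srebf2 farthest to the right in MT over MB.

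In the same comparison, 0 of the 19 cholesterol synthesis genes passed 0.58 in either direction, with a median of 0.04 and a range of -0.29 for Hsd17b7 to 0.28 for Mvd, and the summed FPKM was 693 in si-NC and 709 in the library labelled si-hnRNPL. Of the 13 SREBP control genes, 0 passed, with a median of -0.02 and the lowest value at Mbtps2 (-0.34). The uptake, fatty acid and non-sterol lists also had 0 genes past 0.58, of 8, 13 and 9 compared. Scd1 was at 246 FPKM in si-NC and 202 in the library labelled si-hnRNPL (-0.28) and Fasn at 44.3 and 41.3 (-0.10). Of the 8 efflux genes compared, 1 was higher and 1 was lower, beside 1.36% and 0.864% of all entries. Apoe was the higher one, at 3.14 and 8.16 FPKM, a change of 1.15 (0.85 to 1.44). Ch25h, a cholesterol hydroxylase gene, was the lower one, at 2.36 and 1.15 FPKM, a change of -0.65 (-1.01 to -0.29). The implied fragments were few, at 104 and 172 for Apoe and 91 and 29 for Ch25h. Abca1 was at 2.24 and 2.65 FPKM (0.17) and Abcg1 at 3.26 and 4.11 FPKM (0.26).

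Changes between the polyA libraries moved with gene length and base composition. Across 9894 genes, which are not independent replicates, Spearman's rho of the change was -0.41 with exon length and 0.42 with GC content, against 0.13 and -0.12 across 10244 genes in MT over MB. Srebf1 has a GC content of 58.1% over its exons and Idi1 one of 41.5%. With the trends on length and GC content taken out, the polyA change of Srebf1 was 0.14, that of Idi1 -0.08, that of Sqle -0.06 and that of Lss 0.25. In MT over MB the same step gave 0.70 for Insig1, 0.40 for Srebf2, 0.38 for Fdft1 and -0.20 for Lss. Insig1 was then past 0.58, and Lss changed sign, as did Srebf1, from -0.01 to 0.05. In polyA RNA, Fdft1 changed sign, from 0.04 to -0.01.

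The genes most like the 4 measured enzymes in both changes, among 7170 genes with at least 5 FPKM in all 4 libraries, were Hps5, Atrn, Cnot4, Exoc7 and Nfe2l2, at distances of 0.00473 to 0.0107 from the enzymes' medians of 0.07 and -0.04 on the log2 scale. With only 2 changes compared, 284 genes lay within 0.1.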

How the data were processed

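Reads were trimmed and aligned to mm9 with TopHat2 by the authors, who ran Cufflinks on the alignments and deposited FPKM values per gene entry with a 95% interval and a status. Entries with a failed status were left out (at most 10 named entries in a library), as were entries of assembled units without a gene symbol. The total RNA libraries were made with a strand-specific protocol, and whether strand was used in quantification is not given in the sources used here.

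Changes were computed as log2 of the ratio of FPKM + 1 within the total or within the polyA tables, which were normalized separately. Half-widths of the log2 intervals were combined in quadrature. A change of 0.58 or more was counted, over named entries with a mean FPKM of at least 1. The number of fragments implied by an interval is the square of 2 × FPKM / (upper bound - FPKM), and is no read count. Exon lengths and GC contents came from GENCODE M1, matched for 7 of 7 members with values, and trends were removed as medians in 20 bins of each property over 3 rounds. The genes named were the 8 members, the genes of the cholesterol synthesis and SREBP control lists, the genes past the fold in the other lists with Fasn, Scd1, Scd2, Abca1 and Abcg1, and Hnrnpl and Mir33. The nearby or related genes Ctsb, Rai1, Idi2 and 4930483K19Rik were added after their values were seen. Some genes that this rule selects stay in the list counts but are not reported here. The members and lists were chosen with earlier results of these data known. Alternatives were pseudocounts of 0.1 and 0.01, a fold of 2, intervals that do not overlap, centring, other filters and removal of the trends. Calculations used Python 3.11.15, numpy 2.4.6 and pandas 2.3.3, were tested on simulated data, and the plots were drawn with matplotlib 3.10.9.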

Additional observations from a re-analysis of the deposited data

How the results depend on the processing

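No paired analysis was possible because each condition has 1 library. In MT over MB, 0 of 7 members passed 0.58, but 2 did after centring on the median of all entries (Insig1 and Srebf2) and 1 did with the trends on length and GC content taken out (Insig1). The 2 cholesterol synthesis genes past 0.58 became 1 (Tm7sf2) at a fold of 2 and 1 (Tm7sf2) after centring. The other alternatives, including the pseudocounts and the requirement of intervals that do not overlap, gave the same counts in both comparisons or counts within 1.5 times. Of the 14 member changes, the pseudocounts shifted none by more than 0.0230, centring shifted them by up to 0.21 with 2 changes of sign, and the length and GC step by up to 0.22 with 3. The intervals leave out variation between cultures, which 1 library per condition cannot show. The polyA libraries gave wider intervals for the measured members other than Srebf2, with a half-width of up to 7.62% of the level for Lss. The part of sequencing depth in these widths was not tested.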
